A study of Mus musculus with 12 samples.

Results

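The genes described here encode A20 and other regulators that act through ubiquitin on NF-κB signalling: Tnfaip3, which encodes A20, its binding partners Tnip1, Tnip2 and Tax1bp1, the deubiquitinase gene Cyld, the adaptor genes Traf1, Traf2 and Traf3, and the ubiquitin ligase genes Birc2 and Birc3. The 10 genes were chosen by name, with earlier results of these data known. A gene was measured where an array probe set carried its symbol and no other. For 9 of the 10 genes, 18 of the 45101 probe sets on the array did so. No probe set used here carried Traf3 alone, and its transcript was not analysed here. Of the 18 probe sets, 17 passed the filter on low signal, 1 Cyld probe set did not, and all 9 genes had at least 1 tested probe set among 12914 tested genes.

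Toll-like receptor signals reach NF-κB through ubiquitin chains built on adaptors and kinases, and the chains serve as platforms for the IκB kinases. A20 edits and binds such chains and CYLD cuts them, and both restrain the pathway. ABIN1, ABIN2 and TAX1BP1, the products of Tnip1, Tnip2 and Tax1bp1, bind ubiquitin and work with A20. The cellular inhibitors of apoptosis encoded by Birc2 and Birc3 are ubiquitin ligases that bind TRAF2, and with TRAF2 and TRAF3 they also keep the kinase NIK low in resting cells. Several of these genes are known targets of NF-κB, so that the pathway writes part of its own restraint.

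RNA was measured on 12 one-colour arrays, 1 per culture, of bone marrow macrophages grown with L-929 cell conditioned medium. Cells were from wild-type mice (WT) or from mice with kinase-dead IRAK4 (KD), a kinase that acts below Toll-like receptors. Each strain had 3 conditions with 2 biological replicates each: 4 h with no stimulation, 1 h with lipopolysaccharide (LPS) and 4 h with LPS (1 µg/ml for both). No unstimulated culture was collected at 1 h, so the 1 h comparison changes both LPS and culture time. Whether replicates came from separate animals is not given, so each p-value reflects only how arrays of a group vary, which may be technical. The sources used here do not give how the kinase-dead form was made or the background and age of the mice, and the Irak4 transcript was not analysed.

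The promoters of the 4 genes that rose within 1 h of LPS in WT, Tnfaip3, Tnip1, Traf1 and Birc3, are shown with that of Cyld, which did not pass the test at that time but holds the tighter form of the motif searched. Each window runs from 250 bases before to 50 bases after the annotated start in RefSeq (GRCm38.p6) and is written 5′ to 3′ on the strand of the gene. Tnfaip3 has 2 annotated starts, and the window of the upstream one is shown. Capitals mark matches to a loose NF-κB form (GGG, then 5 bases of any kind, then CC) on either strand, where overlapping matches are merged.
Tnfaip3 promoter (chr10:19015361-19015660, minus strand): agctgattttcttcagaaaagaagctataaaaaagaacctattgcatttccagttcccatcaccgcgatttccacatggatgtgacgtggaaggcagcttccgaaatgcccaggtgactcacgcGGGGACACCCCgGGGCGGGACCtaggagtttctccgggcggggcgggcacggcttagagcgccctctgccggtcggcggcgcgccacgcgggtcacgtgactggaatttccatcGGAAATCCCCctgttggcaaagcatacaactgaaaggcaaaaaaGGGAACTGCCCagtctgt
Tnip1 promoter (chr11:54962891-54963190, minus strand): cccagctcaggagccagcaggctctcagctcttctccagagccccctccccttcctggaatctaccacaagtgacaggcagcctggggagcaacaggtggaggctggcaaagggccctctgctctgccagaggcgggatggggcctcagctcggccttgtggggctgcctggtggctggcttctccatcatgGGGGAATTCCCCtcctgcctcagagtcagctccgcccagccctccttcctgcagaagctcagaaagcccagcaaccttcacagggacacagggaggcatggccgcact
Cyld promoter (chr8:88696778-88697077, plus strand): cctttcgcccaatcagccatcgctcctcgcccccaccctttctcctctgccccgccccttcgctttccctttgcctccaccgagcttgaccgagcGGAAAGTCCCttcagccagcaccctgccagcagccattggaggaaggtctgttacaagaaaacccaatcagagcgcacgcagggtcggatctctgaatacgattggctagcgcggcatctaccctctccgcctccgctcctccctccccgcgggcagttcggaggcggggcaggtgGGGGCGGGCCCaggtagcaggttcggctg
Traf1 promoter (chr2:34961723-34962022, minus strand): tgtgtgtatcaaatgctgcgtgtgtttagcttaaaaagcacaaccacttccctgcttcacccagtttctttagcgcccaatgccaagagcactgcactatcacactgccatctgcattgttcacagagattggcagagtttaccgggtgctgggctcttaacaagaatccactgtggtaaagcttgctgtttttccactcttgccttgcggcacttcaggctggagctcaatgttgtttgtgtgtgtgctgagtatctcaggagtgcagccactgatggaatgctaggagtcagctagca
Birc3 promoter (chr9:7873121-7873420, minus strand): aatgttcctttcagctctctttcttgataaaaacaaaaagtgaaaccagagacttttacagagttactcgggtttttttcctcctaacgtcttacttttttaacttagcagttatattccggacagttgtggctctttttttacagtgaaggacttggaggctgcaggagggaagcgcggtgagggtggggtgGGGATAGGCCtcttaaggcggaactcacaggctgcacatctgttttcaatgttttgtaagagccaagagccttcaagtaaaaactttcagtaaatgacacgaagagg

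The loose form occurred in 50.8% of the 32851 RefSeq promoter windows of the same length, so a match to it says little about any one gene. The tighter form (GGG, then 2 bases of any kind, then TTTCC), a subset of the loose one, occurred in 1.63% of them. All 10 genes, Traf3 included, had a window, and there were 13 windows in all, since Tnfaip3, Tax1bp1 and Birc2 have more than 1 annotated start. The tighter form was found for 4 genes. In Tnfaip3 it lay from 12 to 3 bases before the upstream of its 2 annotated starts, and it was absent from the window of the other. In Traf3 it lay from 10 to 1 bases before the start, in Cyld from 155 to 146 bases before it, and in Traf2 from 32 to 41 bases after it. The letters matched were GGGGATTTCC for Tnfaip3, on the strand opposite to the gene, and again GGGGATTTCC for Traf3, on its own strand. Tnip1 held an inverted repeat from 58 to 47 bases before its start that matched the loose form 4 times, as GGGGAATTCC and GGGAATTCCC on both strands. Loose matches over both strands numbered 8 and 2 in the Tnfaip3 windows and 0 and 7 in the Tax1bp1 windows. Cyld and Traf2 had 4 each, and Traf3 and Birc3 had 1 each. No match to either form lay in the windows of Traf1, Tnip2 or Birc2. In all, 8 of the 13 windows held a loose match, against 50.8% of all RefSeq windows. These matches describe letters in a window and were not tested as binding sites. In RefSeq, Birc2 and Birc3 are neighbours with 0 genes between them.

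**Figure D1:**
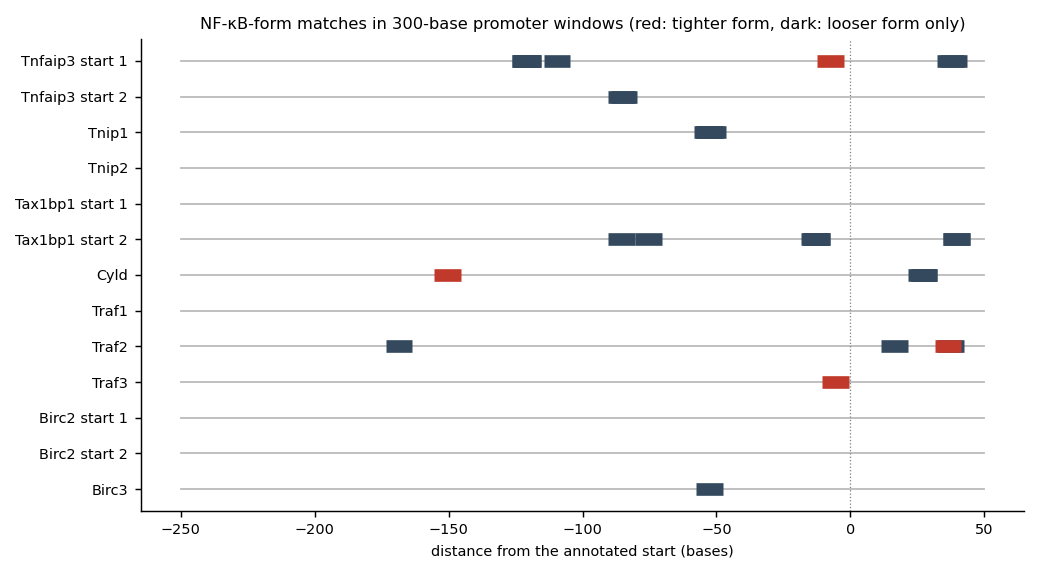
Positions of matches to the NF-κB forms in the 13 promoter windows of the 10 genes, as distance in bases from the annotated start (dotted line at 0). Red bars are matches to the tighter form and dark bars to the loose form only; red bars appear for 4 genes and the windows of Traf1, Tnip2 and Birc2 have no bar.

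Values are the deposited signal of a probe set, a linear intensity, and changes are differences of log2(signal + 4.4) with the standard error (SE) of a limma fit over all 12 arrays. A gene was called where the adjusted p was under 0.05, over all 27931 tested probe sets. Levels are not compared between genes, because probe sets differ in their response. Where a gene had several probe sets, the one with the highest mean was used, those of the _s_at type only where there was no other, and the others are given beside it. Every array had a trimmed mean of 150, while the medians lay between 18.9 and 22 for WT arrays and between 24.2 and 26.9 for KD arrays, so a scaling to equal medians would lower KD against WT. Under that scaling the median of all tested probe sets in KD minus WT moved from 0.026 to -0.184 without LPS, from 0.047 to -0.249 at 1 h and from 0.083 to -0.22 at 4 h. The share of called probe sets that were higher in KD went from 45.2% to 6.74%, from 51.8% to 3.83% and from 58.2% to 8.78% in the same order. KD unstimulated replicate 1 had the highest log2 ratio of 3′ to 5′ control signal, 1.35 for Gapdh against 0.81 to 1.17 on the other 11 arrays. The summed signal of the 8 macrophage markers measured was 17800 to 18400 in WT and 21700 to 25900 in KD without LPS, 19900 to 22800 and 23600 to 23700 at 1 h, and 20300 to 21900 and 20200 to 21600 at 4 h. Without LPS, Csf1r, Cd14 and Lyz2 were called higher in KD. Of the markers of other blood cells, Cd8a (16.2 to 36 over all arrays), Camp and Elane (together 35.5 to 98) and Zbtb46 (16 to 81.1) passed the filter on low signal, and Zbtb46 was called higher in WT at 4 h than at 1 h. No B cell or erythroid marker passed the filter.

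Tnfaip3 had the strongest early rise of the 9 genes. Its signal was 138 and 137 on the WT unstimulated arrays, 2344 and 2399 at 1 h of LPS and 1893 and 1814 at 4 h. On the KD arrays it was 91.9 and 153 without LPS, 1059 and 1109 at 1 h and 649 and 731.5 at 4 h. The unstimulated groups overlapped, all LPS arrays lay above them, and at each time both KD arrays were below both WT arrays. In WT the log2 change was 4.06 ± 0.16 at 1 h, 16.7-fold (adjusted p = 1.95e-12), and 3.71 ± 0.16 at 4 h. In KD it was 3.14 ± 0.16 at 1 h, 8.83-fold (adjusted p = 1.38e-10), and 2.49 ± 0.16 at 4 h. Between 1 h and 4 h the KD signal fell by 0.65 on the log2 scale (SE 0.16, adjusted p = 0.0145), and the WT change of -0.36 (95% interval -0.69 to -0.02) was not called. These intervals overlap (-0.99 to -0.31 in KD) and the difference between them was not tested. The KD call was lost without either of the KD LPS 1 h arrays and without KD LPS 4 h replicate 1, at values from -0.74 to -0.56. It was also lost under equal medians (-0.53), with a prior for the spread without trend and with the mean of the probe sets. The WT change was called without either KD unstimulated array and with only the arrays compared, again at -0.36. A second, dim Tnfaip3 probe set read 1.3 to 40.8 over all arrays and passed the test in none of the 11 comparisons.

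Of the A20 partners, Tnip1, which encodes ABIN1, rose at both times in WT: signals were 452 and 479 without LPS, 838.5 and 975 at 1 h and 1758 and 1787 at 4 h. In KD they were 535 and 656, then 611 and 666, then 1170.1 and 1311. The KD arrays without LPS and at 1 h overlapped, and in WT the 3 conditions did not. The WT log2 change was 0.95 ± 0.12 at 1 h (adjusted p = 3.68e-05) and 1.92 ± 0.12 at 4 h, 3.78-fold. In KD the change at 1 h was 0.11 (95% interval -0.15 to 0.36) and was not called, and at 4 h it was 1.06 ± 0.12, 2.08-fold (adjusted p = 5.25e-06).

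Tnip2, which encodes ABIN2, had a signal of 21.3 to 58.4 over the 12 arrays. With the 6 groups ranked by mean, each overlapped with the next. It was called in none of the 11 comparisons, with an interval of -0.65 to 1.04 for the WT log2 change at 4 h that spans both signs.

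Tax1bp1, an autophagy and ubiquitin adaptor, had signals of 867 and 842 in WT without LPS, 914 and 1118 at 1 h and 1066 and 981 at 4 h. In KD they were 762 and 812, 809.5 and 751, and 756 and 739. Every WT array was above every KD array on this probe set. No LPS change of Tax1bp1 was called in either strain. A further pair of probe sets, 1 reading 847 to 1102 and 1 reading 418 to 679, also had their 3 WT groups above their 3 KD groups by mean. The last Tax1bp1 probe set was dim, at 7.3 to 29, and was called in none of the 11 comparisons.

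Cyld had signals of 1333 and 1418 in WT without LPS, 1496 and 1554 at 1 h and 1949 and 1717 at 4 h, against 1432 and 1493, 1470 and 1434, and 1803 and 1752 in KD. In both strains the 4 h arrays were the highest, and WT and KD overlapped at 4 h. The log2 change at 4 h was 0.41 ± 0.09 in WT (adjusted p = 0.00332) and 0.28 ± 0.09 in KD (95% interval 0.09 to 0.47, adjusted p = 0.061), which was not called. The WT call was lost without WT unstimulated replicate 1 and without WT LPS 4 h replicate 1, at values from 0.32 to 0.50, as well as with a prior without trend (0.41) and with the mean of the probe sets (0.33). The KD change was called under equal medians (0.34), with quantile normalization (0.29) and with a stricter filter (0.28). The 3 other Cyld probe sets read 1.3 to 87.1. The dimmest of them did not pass the filter on low signal and was not tested, and the others were not called in any comparison.

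Among the adaptors, Traf1, whose protein lacks the RING domain of other TRAF proteins, rose most at 4 h. WT signals were 87 and 158 without LPS, 397 and 453 at 1 h and 1875 and 1716 at 4 h. KD signals were 72.1 and 76.7, then 177 and 272, then 1086 and 971. No neighbouring groups overlapped in the order WT 4 h, KD 4 h, WT 1 h, KD 1 h, WT unstimulated, KD unstimulated. The log2 change was 1.81 ± 0.22 at 1 h and 3.88 ± 0.22 at 4 h in WT, 14.8-fold (adjusted p = 1.12e-10), and 1.51 ± 0.22 and 3.71 ± 0.22 in KD, 13.1-fold at 4 h (adjusted p = 4.34e-10). Traf2, an adaptor of TNF receptors and a partner of the Birc ligases, read 8.7 to 67.6 and was called in none of the 11 comparisons. With its groups ranked by mean, each overlapped with the next, and the interval of its WT log2 change at 4 h was -0.57 to 1.64. Without KD unstimulated replicate 1 its KD change at 4 h was called (1.77).

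Of the neighbouring ligase genes, Birc3, which encodes cIAP2, had WT signals of 263 and 296 without LPS, 924 and 951 at 1 h and 1421 and 1378 at 4 h. In KD they were 241 and 274, then 616 and 723, then 1045 and 1037. Only the unstimulated groups of the strains overlapped. The log2 change was 1.73 ± 0.12 at 1 h and 2.31 ± 0.12 at 4 h in WT (adjusted p = 3.32e-11), and 1.36 ± 0.12 and 2.0 ± 0.12 in KD (adjusted p = 5.33e-10). Birc2, which encodes cIAP1, had WT signals of 99.2 and 145, 138 and 103, and 300 and 246. Its KD signals were 84.1 and 123, 102 and 83.5, and 168 and 206. At 4 h both strains were above their own earlier arrays, and the other 4 groups overlapped with a neighbour. The change of Birc2 at 1 h was -0.01 (95% interval -0.5 to 0.49) in WT and -0.13 (-0.63 to 0.36) in KD, neither of them called. At 4 h it was 1.15 ± 0.24 in WT (adjusted p = 0.00166) and 0.84 ± 0.24 in KD (adjusted p = 0.0268). The KD call was lost without KD unstimulated replicate 1 and without either KD LPS 4 h array, at values from 0.58 to 1.11, and with a prior without trend.

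**Figure D2:**
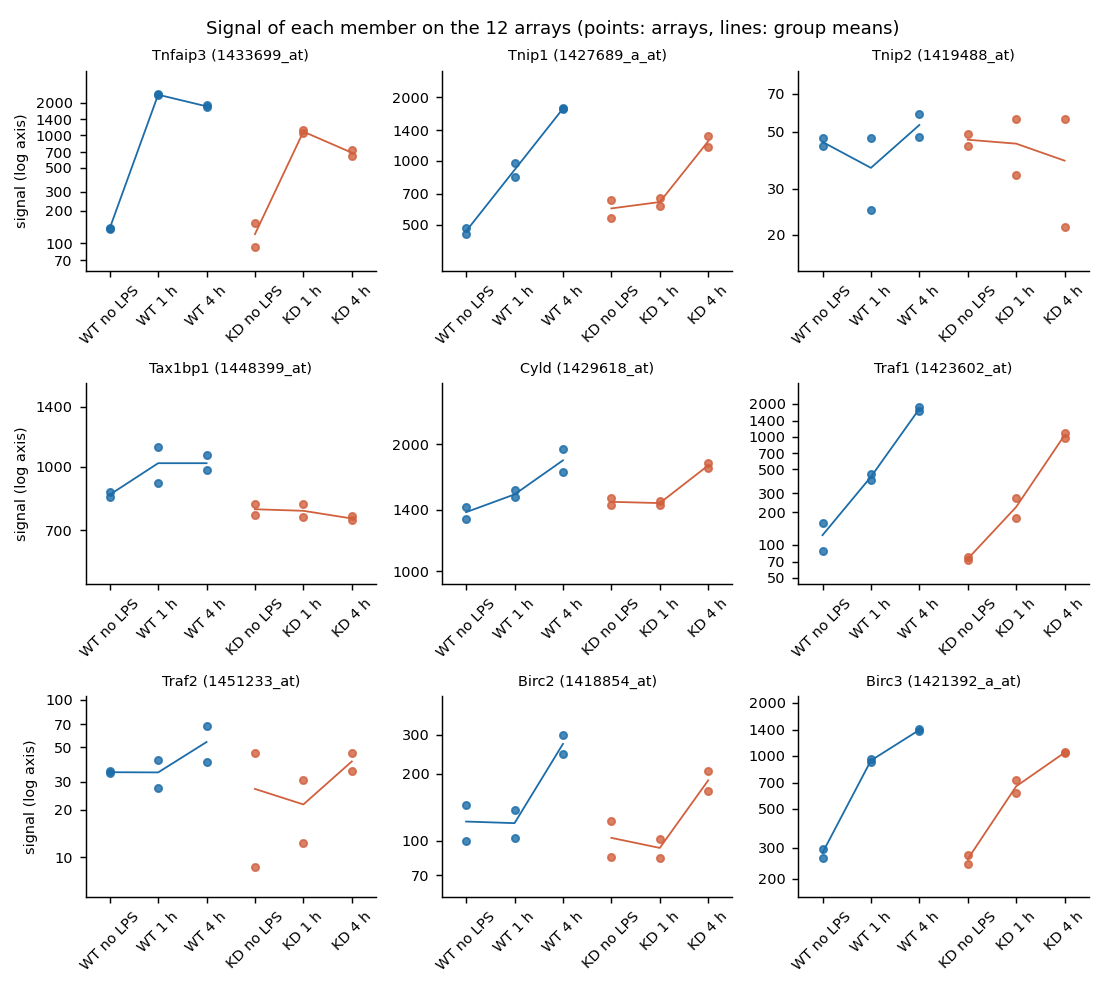
Signal of the representative probe set of each of the 9 measured genes in WT (blue) and KD (orange), on a log axis with its own range per panel; points are the 12 arrays and lines join group means. Tnfaip3 had its highest mean at 1 h in both strains, and Traf1, Tnip1 and Birc3 were highest at 4 h. The points of Tnip2 and Traf2 overlapped between groups that are next to each other when ranked by mean, which is not the order of the axis.

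Traf1 and Birc3 were each read by 2 bright enough probe sets that disagreed on the late phase. The dimmer Traf1 probe set had WT signals of 42.7 and 29.8, 147 and 173, and 183 and 179, and KD signals of 29.3 and 16.3, 115 and 99.3, and 76.1 and 95.7. It was called higher at both times in both strains, but its change from 1 h to 4 h was 0.18 ± 0.27 in WT and -0.31 ± 0.27 in KD, not called, where the brighter one rose by 2.07 ± 0.22 and 2.20 ± 0.22. The dimmer Birc3 probe set had WT signals of 34.2 and 44.9, 254 and 295, and 247 and 208, and KD signals of 31.6 and 30.3, 255 and 187, and 118 and 149. Its change from 1 h to 4 h was -0.27 ± 0.22 in WT and -0.70 ± 0.22 in KD (adjusted p = 0.0565), neither called, where the brighter one rose by 0.58 ± 0.12 and 0.64 ± 0.12. Thus both genes were higher with LPS by either probe set, while the further rise after 1 h held for 1 probe set of each. What part of the transcript each probe set reads is not used here.

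**Figure D3:**
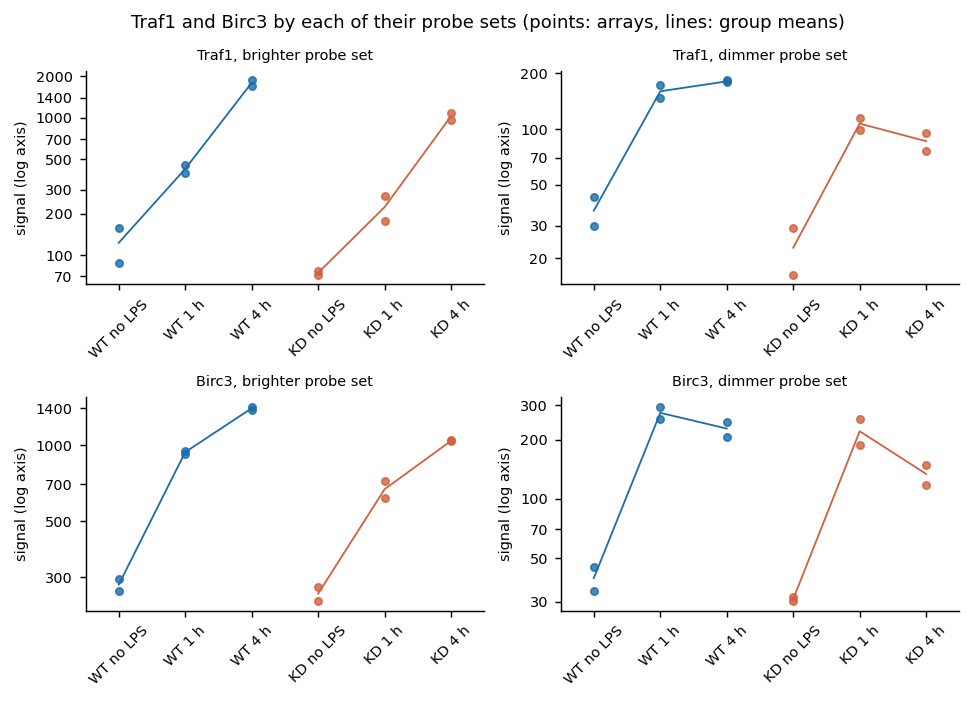
Signal of both Traf1 and both Birc3 probe sets by group, WT in blue and KD in orange, on log axes; points are arrays and lines join group means. The left panels climb from 1 h to 4 h in both strains, and in the right panels the changes from 1 h to 4 h, from 0.18 to -0.70 on the log2 scale, were not called.

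Counted over the 9 genes, 4 were called higher in WT at 1 h of LPS (Tnfaip3, Tnip1, Traf1 and Birc3) and 0 lower, where 2.89% of all tested probe sets were higher and 6.12% were called in either direction. At 4 h the same 4 and also Cyld and Birc2 were called higher, 6 of 9, where 6.95% of probe sets were higher and 17.1% were called. In KD, 3 of 9 were called higher at 1 h (Tnfaip3, Traf1 and Birc3), where 3.17% were higher and 5.47% called, and 5 of 9 at 4 h (these 3, Tnip1 and Birc2), where 5.3% were higher and 10% called. The median log2 change of the 9 genes was 0.24 at 1 h and 1.15 at 4 h in WT, against -0.033 and -0.119 over all tested probe sets. In KD it was -0.01 and 0.84, against -0.006 and -0.046. From 1 h to 4 h, Tnip1, Traf1, Birc2 and Birc3 were called higher in WT, 4 of 9 where 7.1% of probe sets were higher and 15.8% called. The same 4 were called higher in KD and Tnfaip3 lower, where 4.55% were higher, 3.88% lower and 8.43% called. The KD call of Birc2 here was 0.98 ± 0.24 and was lost without KD LPS 1 h replicate 2 and without KD LPS 4 h replicate 2, at values from 0.84 to 1.12, and with a prior without trend. With the mean of its probe sets Birc3 gave -0.03 in KD, and its call from 1 h to 4 h was lost in both strains. Comparisons within a strain share their unstimulated arrays. The counts here and below take a single probe set per gene, chosen for high signal. The shares beside them cover all tested probe sets, dim ones included, so the units differ. The genes, and the lists below, were also chosen with earlier results of these data known. The part of that choice in the counts was not tested.

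**Figure D4:**
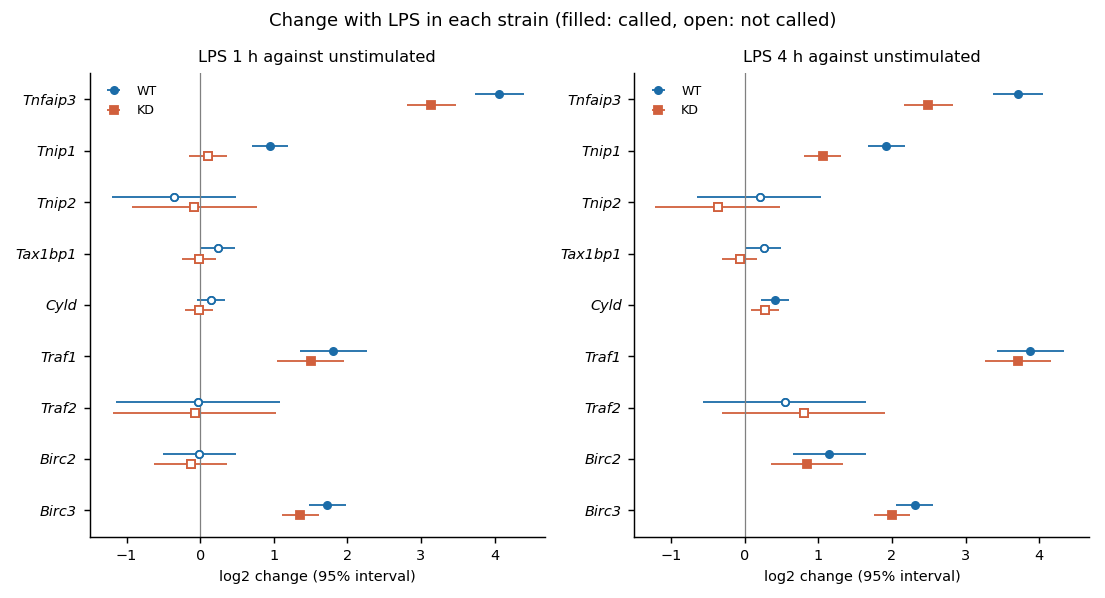
Log2 change of each gene with LPS against the unstimulated arrays of the same strain at 1 h (left) and 4 h (right), WT as blue circles and KD as orange squares, with 95% intervals of the limma fit. Filled symbols are called and open ones are not; the WT and KD intervals are apart for Tnfaip3 and Tnip1 at both times and overlap for Traf1.

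Without LPS, limma called a difference between KD and WT in 0 of the 9 genes, 2 of which had an unadjusted p under 0.05, where 5.25% of all tested probe sets were called. That share was 0.97% without WT unstimulated replicate 1, 2.98% without WT unstimulated replicate 2 and 2.91% without KD unstimulated replicate 2. The widest uncertainty was for Traf2, with an interval of -1.72 to 0.5 for the log2 difference of KD minus WT. For Traf1 the difference was -0.63 (95% interval -1.08 to -0.18, adjusted p = 0.108) and for Tnip1 0.35 (0.1 to 0.6, adjusted p = 0.11). Traf1 was called without WT unstimulated replicate 1 (-1.05) and under equal medians (-0.84), Tnip1 without KD unstimulated replicate 1 (0.49) and Tnfaip3 without KD unstimulated replicate 2 (-0.56). These are macrophage cultures measured in bulk, in which fewer cells of a type and less RNA per cell cannot be told apart.

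At 1 h of LPS, 3 of the 9 genes were called lower in KD than in WT and 0 higher, where 0.533% of probe sets were lower and 1.11% called. Tnfaip3 was lower by a log2 difference of -1.13 ± 0.16, 2.18-fold (adjusted p = 0.000904). Traf1 had -0.94 ± 0.22, 1.91-fold (adjusted p = 0.0414), and Tnip1 had -0.50 ± 0.12, 1.41-fold (adjusted p = 0.0493). Birc3 had -0.49 ± 0.12 (95% interval -0.74 to -0.24, adjusted p = 0.0517) and was not called, though its arrays did not overlap. The Tnfaip3 call held whichever of the 12 arrays was left out and was lost when the prior for the spread had no trend with signal and when its dim probe set was averaged in. The Tnip1 call held only without WT LPS 1 h replicate 1 or without either KD unstimulated array and was lost in the other 9 such fits, at values from -0.61 to -0.39. The Traf1 call was lost without any 1 of the WT LPS 1 h, WT LPS 4 h or KD LPS 4 h arrays and without KD LPS 1 h replicate 1, at values from -1.24 to -0.63. Both calls were also lost with quantile normalization, no filter, a pseudocount of 1 and a prior without trend. Birc3 was called without either KD unstimulated array, at the same -0.49. The direction of Tnip1 and Traf1 was the same in all 12 of these fits.

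At 4 h, 5 of the 9 were called lower in KD and 0 higher, where 2.24% of probe sets were lower and 5.37% called. The log2 differences were -1.42 ± 0.16 for Tnfaip3, 2.68-fold lower (adjusted p = 1.82e-05), -0.80 ± 0.22 for Traf1 (adjusted p = 0.0351), -0.52 ± 0.12 for Tnip1 (adjusted p = 0.0142), -0.45 ± 0.11 for Tax1bp1 (adjusted p = 0.0222) and -0.42 ± 0.12 for Birc3 (adjusted p = 0.0415). The second Traf1 probe set was also called lower in KD at 4 h (-1.05 ± 0.27, adjusted p = 0.0273), and the second Birc3 probe set had -0.75 ± 0.22 (adjusted p = 0.0535). Cyld was nearly level between the strains, at -0.04 with an interval of -0.23 to 0.15, and the arrays of the strains overlapped. The Tnfaip3 call held in all 12 fits that left out 1 array and under all 11 other settings. Those of Tax1bp1, Traf1 and Birc3 were lost without any 1 of the 4 arrays compared, at values from -0.51 to -0.39, from -0.88 to -0.72 and from -0.45 to -0.40, and that of Tnip1 without either WT LPS 4 h array or KD LPS 4 h replicate 1, from -0.60 to -0.43. The 4 calls other than Tnfaip3 were also lost with a prior without trend, those of Traf1 and Birc3 without a filter, and that of Birc3 with quantile normalization. For Tax1bp1 the other probe sets gave -0.32, -0.36 and, for the dim one, 0.19, none of them called, and the mean of all its probe sets gave -0.23.

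With arrays scaled to equal medians, 7 of the 9 were called lower at 4 h, Cyld (-0.36) and Birc2 (-0.85) among them. Under that scaling 4125 of the 27931 tested probe sets were called lower, against 627 as deposited, and the median over all of them was -0.22. Taken relative to the median of all tested probe sets, which removes a shift of whole arrays by construction, the differences as deposited were -1.5 for Tnfaip3, -0.60 for Tnip1, -0.89 for Traf1, -0.53 for Tax1bp1, -0.51 for Birc3 and -0.13 for Cyld. After quantile normalization they were -1.41, -0.50, -0.79, -0.42, -0.42 and -0.01 in the same order. For Birc2, Tnip2 and Traf2, not called as deposited, the relative differences were -0.62, -0.62 and -0.43 as deposited. After quantile normalization those of Birc2, Tnip2 and Traf2 were -0.55, -0.73 and -0.50.

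Whether the response to LPS itself differed was tested as the KD response minus the WT response. At 1 h, Tnip1 was the 1 gene of 9 called, with -0.85 ± 0.17 (adjusted p = 0.0369), where 0.15% of probe sets were lower and 0.326% called. By level, Tnip1 in KD minus WT was 0.35 without LPS (not called), -0.50 at 1 h and -0.52 at 4 h. The unstimulated difference thus enters its interaction at both times. Tnfaip3 had -0.92 ± 0.23 (95% interval -1.4 to -0.45, adjusted p = 0.088) and was not called, though it was without KD unstimulated replicate 1 (-1.28). The Tnip1 call held without WT LPS 1 h replicate 1 and without KD unstimulated replicate 1 and was lost in the other 10 fits that left out 1 array, at values from -0.99 to -0.70. At 4 h, 2 of 9 were called with a smaller response in KD, Tnfaip3 at -1.22 ± 0.23 (adjusted p = 0.00575) and Tnip1 at -0.86 ± 0.17 (adjusted p = 0.00822), where 1.19% of probe sets were lower and 3.07% called. The Tnfaip3 call held in all 12 fits that left out 1 array, from -1.57 to -0.86, and that of Tnip1 was lost without WT unstimulated replicate 1 and without KD LPS 4 h replicate 1, from -1.01 to -0.72. Both were lost when the prior for the spread had no trend with signal, and that of Tnfaip3 also with the mean of its probe sets, with adjusted p over all settings of 7.95e-05 to 0.2 for Tnfaip3 and 0.00313 to 0.176 for Tnip1.

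Traf1 and Birc3, lower in KD at 4 h by level, were not called for their response. The interaction at 4 h was -0.17 for Traf1 (95% interval -0.81 to 0.47) and -0.31 for Birc3 (-0.66 to 0.04). For Birc2 it was -0.31 (-1.01 to 0.39) and for Tax1bp1 -0.33 (-0.66 to 0). The comparisons between strains and the interactions share arrays, so the calls for a gene are not independent of each other. The stromal marker list moved with strain and LPS: the summed signal of its 7 tested genes was 3120 to 3190 in WT and 1470 to 1780 in KD without LPS, and 2250 to 2430 and 2590 to 2920 at 4 h. Of the 7, 4 were called lower in KD without LPS, where 5.25% of all tested probe sets were called. A higher KD response at 4 h was called for 5, where 3.07% of probe sets were called. By level, Thbs2 was higher and Col1a1 and Dcn lower in KD at 1 h, and Col6a1 and Thbs2 were higher at 4 h. Of the 8 macrophage markers, Cd68 and Cd14 had a lower KD response at 4 h, and Itgam was higher in KD at 4 h by level. The part of these markers in the results for Tnfaip3, Tnip1 and the other genes was not tested.

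**Figure D5:**
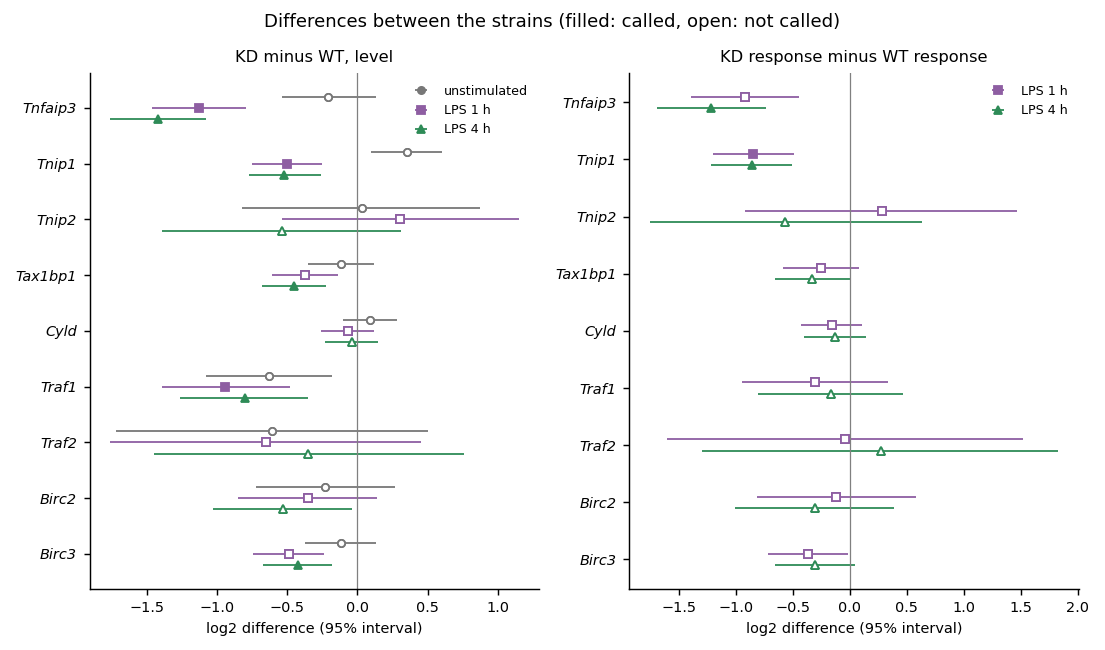
Log2 difference of KD minus WT in each condition (left) and of the KD response minus the WT response to LPS (right) for the 9 genes, with 95% intervals of the limma fit; filled symbols are called. On the left, filled symbols appear only with LPS and lie below 0; on the right, Tnip1 is filled at both times and Tnfaip3 at 4 h.

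Other genes of ubiquitin signalling, in 5 lists with 46 measured genes, give the surroundings. In WT at 4 h, 18 of the 46 were called higher and 3 lower, where 6.95% of all tested probe sets were higher and 17.1% called. Of 5 measured genes of linear chain assembly and removal, 1 rose, a share near that of all probe sets called, and 0 fell. The gene was Rnf31, the catalytic subunit of the linear ubiquitin ligase (1.04 ± 0.26). That call was lost without WT unstimulated replicate 2 and without WT LPS 4 h replicate 1, from 0.81 to 1.27. Of 11 kinases and adaptors bound to ubiquitin chains, 5 rose and 0 fell, led by Ikbke, which encodes an IκB kinase-related kinase (1.96 ± 0.19), Tab2, a chain-binding adaptor of the kinase TAK1 (0.81 ± 0.10), and Tbk1 (0.66 ± 0.14), whose call was lost when the prior for the spread had no trend with signal. Of 11 conjugating enzymes and ligases, 4 rose and 1 fell. Peli1, a ubiquitin ligase of IRAK proteins, rose by 2.63 ± 0.12, 6.18-fold, Rc3h1, which encodes the RNA-binding protein roquin, rose by 0.72 ± 0.13, and Ube2d1, a conjugating enzyme, fell by 0.92 (SE 0.24) on the log2 scale, a call lost without either WT unstimulated array and without WT LPS 4 h replicate 2 (range -1.05 to -0.78). The count for the kinases and adaptors was lower without WT unstimulated replicate 1, and that for the conjugating enzymes and ligases was lower without either WT unstimulated array. Without WT unstimulated replicate 1 the share of all tested probe sets called was also lower.

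Of 11 other deubiquitinases, 3 rose in WT at 4 h, among them Otud5 (0.97 ± 0.16) and Usp18, which acts on ISG15 (0.82 ± 0.15), and 1 fell, Usp2 (-0.79 ± 0.14). Of 8 adaptors and inhibitors around A20 and TBK1, 5 rose and 1 fell. Malt1, a paracaspase that cleaves A20, rose by 2.97 ± 0.21, 7.84-fold, Sqstm1, the autophagy adaptor p62, by 1.10 ± 0.10, and Tank by 1.05 ± 0.11. This count of 6 called was lower without WT unstimulated replicate 2. The list medians of the log2 change in WT at 4 h were 0.24, 0.44, 0.13, 0.11 and 0.52 in the order given, against -0.119 over all tested probe sets. In KD at 4 h, 10 of the 46 were called higher and 2 lower, where 5.3% of probe sets were higher and 10% called, so that the counts of the first 2 lists are near or below that share. By list the counts higher and lower were 0 and 0, 1 and 0, 3 and 0, 2 and 2, and 4 and 0, with Ikbke, Peli1, Usp18, Malt1, Sqstm1 and Tank among the genes that rose. The KD count for kinases and adaptors was higher without either WT LPS 1 h array or without KD unstimulated replicate 1. That for conjugating enzymes and ligases was lower without KD unstimulated replicate 1 or KD LPS 4 h replicate 1. That for deubiquitinases was lower without KD unstimulated replicate 2 or either KD LPS 4 h array. Without either KD LPS 4 h array the share of all tested probe sets called was also lower.

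The response at 4 h differed between the strains for 5 of these 46 genes, where 3.07% of probe sets were called. Peli1 had an interaction of -1.13 ± 0.17 (adjusted p = 0.00124), with a KD change of 1.5 ± 0.12. It was higher in KD without LPS (0.47 ± 0.12, adjusted p = 0.0242), a call lost without any 1 of the unstimulated arrays (0.45 to 0.50) and at equal medians (0.25), and lower in KD at 4 h (-0.66 ± 0.12, adjusted p = 0.0023), a call lost without KD LPS 4 h replicate 2 (range -0.73 to -0.58). Malt1 had -1.62 ± 0.30 (adjusted p = 0.00565), with a KD change of 1.35 ± 0.21, and its call was lost without WT unstimulated replicate 1 and without KD LPS 4 h replicate 1, from -2.02 to -1.22. Ube2d1 went the other way in KD, where it rose by 0.88 ± 0.24 (lost without KD unstimulated replicate 1 and without KD LPS 4 h replicate 1, from 0.66 to 1.10), and its interaction was 1.80 ± 0.34 (adjusted p = 0.00681), lost without KD LPS 4 h replicate 1 (range 1.58 to 2.02). By level Ube2d1 was lower in KD without LPS (-0.98 ± 0.24, adjusted p = 0.0222), a call lost without either WT unstimulated array and without KD unstimulated replicate 1 (range -1.18 to -0.79), and at 4 h its difference of 0.82 ± 0.24 was not called (adjusted p = 0.0568). Rc3h1 had -0.78 ± 0.19 (adjusted p = 0.0309) and Tab2 -0.52 ± 0.14 (adjusted p = 0.0489). Of the 12 fits with an array removed, 5 kept the Rc3h1 call, those without a 1 h array or KD unstimulated replicate 1, and 3 kept that of Tab2, those without a WT 1 h array or KD unstimulated replicate 2. All 5 interaction calls were lost when the prior for the spread had no trend with signal. So were the Peli1 level calls without LPS and at 4 h, the Ube2d1 level call without LPS and the KD rises of Malt1 and Ube2d1. With only the arrays compared, the Peli1 call without LPS and the KD rise of Ube2d1 were also lost. For the interaction at 1 h limma called 0 of the 46 genes, a count near the 0.326% of all tested probe sets called. Of the 46, 11 had an unadjusted p under 0.05.

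Across the 12 arrays the 9 genes did not form a single course. Tnip1 correlated with Traf1 at r = 0.95 and with Cyld at 0.93, and Birc3 with Traf1 at 0.95 and with Tnfaip3 at 0.91. Tnfaip3 and Birc2 had r = 0.39, and Tnip2, at a low signal of 21.3 to 58.4, was between -0.13 and 0.23 with every other gene. Among 12905 other genes, those most like Tnfaip3 over the arrays were Nfkbiz (r = 0.991), Pde4b (0.986), Socs3 (0.984), Tnf (0.983) and Gm6377 (0.981). Those most like Traf1 were Sod2 (0.988), Clec4e (0.985), Ehd1 (0.98), Plek (0.979) and Icam1 (0.978). These are Pearson correlations of log2 values over arrays that share 6 conditions and are given as descriptions. Each gene was read by its representative probe set. The dimmer Traf1 and Birc3 probe sets, which had no called rise from 1 h to 4 h, were not used for them.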

How the data were processed

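The authors deposited 1 linear intensity for each probe set and array, computed by MAS5 as stated per the submitters' processing notes. The sources used here do not give its version or settings. All arrays had the same trimmed mean (2% at each end), so values were used as deposited. Arrays have no read depth, and their number limits precision. Symbols came from the platform annotation, in which 34958 probe sets had 1 symbol, 932 had several and 9211 had none. The 64 array controls were left out.

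Signals were turned into log2(value + 4.4), 4.4 being the 20th percentile of all values, which understates changes of dim probe sets. The 27931 probe sets that exceeded the median of 2 or more arrays were tested. In limma 3.58.1 (R 4.3.3) a mean was fitted for each of the 6 groups, using moderated variances, a prior trend and Benjamini-Hochberg adjustment within each of 11 comparisons. The main fit, but none of the alternatives, was also run on a simulated data set, where only the 4 h responses were examined. Of several tested probe sets of a gene, the brightest on average stood for it, with _s_at and _x_at types used only where there was no other. All 10 genes were named, and of the 5 lists the 3 called genes with the largest change in WT at 4 h and those called in an interaction. For Tnfaip3 and Traf1, the 5 genes with the highest correlation over arrays were named. The genes and lists were chosen with earlier results of these data known. Alternatives were 2 other scalings, other filters, pseudocounts of 1 and 23.4, a prior without trend, only the arrays compared, other probe set rules, each array left out and the replicate number as a block. Replicate numbers did not pair the samples: same-numbered deviations correlated at -0.07 to 0.04 over 15 group pairs. Promoter windows came from RefSeq GRCm38.p6.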

Additional observations from a re-analysis of the deposited data

Results flagged for a closer look

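The strains' responses to LPS differed by the test of the difference itself for these genes: Tnip1 at 1 h (KD response minus WT response -0.85, adjusted p = 0.0369 with limma), and at 4 h Tnfaip3 (-1.22, adjusted p = 0.00575) and Tnip1 (-0.86, adjusted p = 0.00822). At 4 h both KD arrays lay below both WT arrays for Tnfaip3, and the Tnip1 result at 1 h rests on few of the fits that left out 1 array. Both Tnip1 values also include its difference of 0.35 in KD minus WT without LPS, which was not called.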

How the results depend on the processing

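The rises of Tnfaip3, Traf1 and Birc3 with LPS in both strains at both times, and of Tnip1 in WT at both times and in KD at 4 h, kept direction and call under every alternative run. Differences between strains depended more on settings. With the replicate number as a block the counts of genes called were 4, 6 and 4 in WT, 3, 5 and 5 in KD, 0, 3 and 5 for KD minus WT and 1 and 2 for the interactions, as without it. Of the other single-gene calls that were rerun, only the Tab2 interaction at 4 h (-0.52) lost its call. Among the calls not rerun under any alternative were those of the cell type markers and the KD rises of Ikbke, Usp18, Sqstm1 and Tank. For KD minus WT at 1 h, 3 genes were called, but 1 with quantile normalization, no filter, a pseudocount of 1 or the mean of probe sets, 6 at equal medians and 0 with a prior without trend. For KD minus WT at 4 h, 5 became 3 without a filter and 1 without trend. Without LPS 0 became 1 at equal medians, where 2505 of the 27931 tested probe sets were called lower, against 803 as deposited. The interaction count at 1 h was 0 without a filter, without trend or with only the arrays compared, and 2 with a pseudocount at the median. At 4 h it was 0 without trend and 1 with the mean of probe sets. KD 4 h minus 1 h gave 3 without trend or with the mean of probe sets. Leaving out 1 array gave 4 to 4, 5 to 6 and 4 to 5 in WT, 3 to 3, 4 to 5 and 3 to 6 in KD, 0 to 1, 1 to 4 and 1 to 5 for KD minus WT, and 0 to 2 and 1 to 2 for the interactions. Over the same fits the share of all probe sets called, the background of these counts, fell to 2.65%, 10.4% and 9.81% at the lowest in WT, without WT unstimulated replicate 1 for the first and WT LPS 4 h replicate 1 for the other two. In KD it fell to 2.93%, 5.64% and 4.36%, without KD LPS 1 h replicate 1 for the first and KD LPS 4 h replicate 1 for the other two. Between the strains it fell to 0.97% without WT unstimulated replicate 1, to 0.448% without KD LPS 1 h replicate 2 and to 1.93% without WT LPS 4 h replicate 1. For the interactions it fell to 0.0537% without WT LPS 1 h replicate 2 or KD LPS 1 h replicate 1, rose to 0.866% without KD unstimulated replicate 1, and at 4 h fell to 0.963% without KD LPS 4 h replicate 1. The share for KD minus WT at 1 h was 0.0609% without trend and 13.2% at equal medians. At 4 h it was 1.8% without trend, 2.65% without a filter, 13% with a stricter one and 16.2% at equal medians. The percentage of called probe sets that were higher moved at equal medians from 40.6 to 63 for the WT 4 h response, from 44.8 to 63.8 for WT 4 h minus 1 h, from 58 to 47.7 and from 53 to 66.4 for the KD responses, from 54 to 75.2 for KD 4 h minus 1 h and from 53.8 to 27.1 and 61.1 to 39 for the interactions. No reversed value was called; 1 had a called value as deposited, Birc3 in KD 4 h minus 1 h. With quantile normalization the reversed values were 0.03 for Traf2 in the WT 1 h response, 0.03 for Birc2 in the WT 1 h response, -0.02 for Tax1bp1 in WT 4 h minus 1 h, -0.02 for Tnip2 in KD minus WT without LPS, 0 for Cyld in KD minus WT at 4 h. At equal medians the reversed values were 0.02 for Birc2 in the WT 1 h response, 0.06 for Tax1bp1 in KD 4 h minus 1 h, -0.18 for Tnip2 in KD minus WT without LPS, -0.14 for Cyld in KD minus WT without LPS, 0 for Rc3h1 in the KD 4 h response, -0.14 for Tab2 in KD minus WT without LPS. With the highest probe set whatever its suffix the reversed values were -0.05 for Tax1bp1 in the WT 1 h response, 0.09 for Tax1bp1 in the KD 1 h response, 0.14 for Tax1bp1 in the interaction at 1 h. With the mean of a gene's probe sets the reversed values were -0.02 for Cyld in the WT 1 h response, -0.13 for Tax1bp1 in WT 4 h minus 1 h, 0.23 for Tax1bp1 in the KD 1 h response, 0.12 for Tax1bp1 in the KD 4 h response, -0.03 for Birc3 in KD 4 h minus 1 h, 0.06 for Cyld in KD minus WT at 1 h, 0.03 for Cyld in KD minus WT at 4 h, 0.10 for Tax1bp1 in the interaction at 1 h, 0.11 for Tax1bp1 in the interaction at 4 h. Leaving out 1 array turned the sign of further values that were not called, with these ranges. For the WT 1 h response these were Tnip2 -0.77 to 0.05, Traf2 -0.29 to 0.23, Birc2 -0.27 to 0.25. For WT 4 h minus 1 h these were Tax1bp1 -0.13 to 0.16. For the KD 1 h response these were Tnip1 -0.04 to 0.25, Tnip2 -0.41 to 0.25, Tax1bp1 -0.07 to 0.04, Cyld -0.04 to 0.02, Traf2 -1.04 to 0.89, Birc2 -0.39 to 0.13. For the KD 4 h response these were Tnip2 -0.98 to 0.25, Traf2 -0.16 to 1.77, Rc3h1 -0.13 to 0.01. For KD 4 h minus 1 h these were Tnip2 -0.90 to 0.33. For KD minus WT without LPS these were Tnfaip3 -0.56 to 0.15, Tnip2 -0.05 to 0.10, Traf2 -1.58 to 0.35, Birc2 -0.49 to 0.03, Malt1 -0.12 to 0.68. For KD minus WT at 1 h these were Tnip2 -0.11 to 0.71. For KD minus WT at 4 h these were Tnip2 -1.15 to 0.08, Cyld -0.13 to 0.05, Traf2 -0.69 to 0. For the interaction at 1 h these were Tnip2 -0.13 to 0.69, Traf1 -0.72 to 0.11, Traf2 -1.01 to 0.92, Birc2 -0.39 to 0.14. For the interaction at 4 h these were Tnip2 -1.18 to 0.05, Traf1 -0.59 to 0.24, Traf2 -0.70 to 1.23. The cause of these changes was not tested.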
